A study of Homo sapiens with 7 samples.

Results

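The genes described here code for the SR proteins and the hnRNPs, the RNA-binding proteins that most often set which exons of a pre-mRNA are kept. They were taken by name: every row of the deposited table whose Ensembl identifier maps to SRSF with a number, TRA2A, TRA2B, PTBP1, PTBP2, PTBP3 or a symbol that begins with HNRNP. The rule used no measured value. It gave 44 of 19978 genes, of which 12 are SR genes (SRSF1 to SRSF12), 2 are TRA2 genes, 3 are PTB genes and 27 are HNRNP genes. All 44 are annotated as protein-coding in GENCODE release 44. HEK-293, an established human embryonic kidney line, was kept for 48 h in 3 conditions before poly(A) RNA was sequenced. Control cells (2 samples) grew at pH 7.4 and acidosis cells (3 samples) at pH 6.6. SRPIN340 cells (2 samples) grew at pH 7.4 with 10 µM of this inhibitor of the SR protein kinases SRPK. Per the study's methods, the medium held the vehicle DMSO in all 3 conditions. All cells are of 1 line, and the labels name no genetic change in any group.

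SR proteins carry an RNA recognition motif and a tail rich in arginine and serine. They bind exonic enhancers, recruit U1 and U2 snRNP to nearby splice sites, and are phosphorylated in the tail by the SRPK and CLK kinases, which sets their place between nuclear speckles, nucleoplasm and cytoplasm. The hnRNPs coat nascent transcripts and often oppose SR proteins at the same exons, as PTBP1 does at pyrimidine-rich tracts and HNRNPA1 at exonic silencers. Many genes of both families hold a poison exon or a spliced 3' end that routes part of their own transcripts into nonsense-mediated decay (NMD), so their mRNA levels are under feedback from their proteins. In GENCODE, 31 of the 44 members have at least 1 transcript annotated as an NMD target, all 12 SR genes among them, against 39.1% of the 19977 annotated genes. Counts per gene add all transcripts together, so the share of such isoforms is not seen in the values below.

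The values are estimated counts per gene, shown as CPM (counts scaled to 1e6 per library) after TMM scaling of the library totals, which ran from 13615816 to 24110460. A gene passed at a Benjamini-Hochberg adjusted p under 0.05 in edgeR's quasi-likelihood test over 14863 genes with all 7 samples in 1 fit, and was called if it also had an absolute log2 fold change over 1. The study's methods name biological repeats, each sequenced in replicates, while the deposited counts have 1 column per sample. How replicates were combined is not given in the sources used here, and the labels do not say whether samples are separate cultures. The p-values rest on the spread between samples within groups, estimated over all 7 samples with information shared across genes. The top 100 genes took 24.1% to 24.8% of each acidosis library, against 15.2% to 15.4% of each library at pH 7.4. Scaling by total count only moved the median log2 fold change of all tested genes in acidosis from -0.05 to -0.63, and that of the members from -0.01 to -0.58. Changes in acidosis are therefore relative to the typical gene, and less RNA per cell cannot be told apart from fewer cells. All 9 markers of HEK-293 fixed for the check were above 1 CPM on average, while the highest value of any blood, hepatocyte or endothelial marker in any sample was 2.04 CPM. Among 4 fibroblast genes, COL1A1 and LUM were above 1 CPM, and the summed level of the list was 38.8 CPM in both control samples, 39.7 to 50.8 with SRPIN340 and 80.5 to 92.7 in acidosis. The part of these in the members' changes was not tested.

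Of the 44 members, 40 passed the filter on low counts. The 4 others, HNRNPCL1 to HNRNPCL4, are copies of HNRNPC with 0 to 2 counts in any sample, and 2 tested members, HNRNPA1L2 and HNRNPA1L3, are copies of HNRNPA1 with at most 6.06 CPM in any sample. HNRNPA1L2 had 44 counts in control replicate 2, 14 in acidosis replicate 2 and 0 in the other 5 samples, and since its reads cannot always be told from those of HNRNPA1 no fold is given for it. The other 38 members had a mean of at least 10 CPM and are described below. SRSF1 shares 1890 exonic bases with an overlapping annotated gene, HNRNPUL2 shares 2391 with the readthrough gene HNRNPUL2-BSCL2, SRSF6 and HNRNPL share 654 and 561 with overlapping genes on their strand, and HNRNPH2 shares 362 with the readthrough gene RPL36A-HNRNPH2, so the estimated counts of these genes could be split between entries.

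Sequences are shown for the members at the extremes of the acidosis comparison: HNRNPL, which rose most, HNRNPU, which fell most, and SRSF3, which fell most among the SR genes. Each is the 250 bases before the RefSeq start site (GRCh38.p14), read 5' to 3' on the strand of the gene. The regions are chr19:38849987-38850236 on the minus strand for HNRNPL, chr1:244864544-244864793 on the minus strand for HNRNPU and chr6:36594112-36594361 on the plus strand for SRSF3. Capitals mark exact matches, on either strand, to 4 motifs: the CCAAT box (CCAAT), the GC box (GGGCGG), an ETS core (CCGGAA) and the TATA box (TATAAA).
HNRNPL: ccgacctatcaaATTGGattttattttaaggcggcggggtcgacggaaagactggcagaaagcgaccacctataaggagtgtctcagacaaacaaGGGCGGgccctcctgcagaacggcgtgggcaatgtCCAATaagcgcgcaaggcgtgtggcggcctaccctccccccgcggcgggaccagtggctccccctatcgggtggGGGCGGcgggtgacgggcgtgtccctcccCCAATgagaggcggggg
HNRNPU: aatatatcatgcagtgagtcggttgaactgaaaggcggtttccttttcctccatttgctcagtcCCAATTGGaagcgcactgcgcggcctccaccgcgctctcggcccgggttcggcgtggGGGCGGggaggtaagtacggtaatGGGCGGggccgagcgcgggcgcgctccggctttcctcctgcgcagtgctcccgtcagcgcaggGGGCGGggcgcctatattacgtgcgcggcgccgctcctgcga
SRSF3: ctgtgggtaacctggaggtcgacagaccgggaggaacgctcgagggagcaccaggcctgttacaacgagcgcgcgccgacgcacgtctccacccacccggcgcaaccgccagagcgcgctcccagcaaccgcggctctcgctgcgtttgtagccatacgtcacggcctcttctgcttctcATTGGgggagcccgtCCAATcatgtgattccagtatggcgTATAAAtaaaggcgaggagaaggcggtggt

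HNRNPL holds 3 CCAAT and 2 GC boxes in this window. HNRNPU holds 3 GC boxes and 2 CCAAT matches that overlap each other on opposite strands, and SRSF3 holds 2 CCAAT boxes and a TATA box. RefSeq promoters were found for 39 members, and for each the window nearest the canonical start was used. The background holds all listed promoters and was not reduced to 1 per gene. For HNRNPA1L2 the window used lay 24906 bases from the canonical start. A CCAAT box occurred in 53.8% of them against 32% of all 35116 promoters in the table, and a GC box in 64.1% against 42.6%. The ETS core was in 20.5% against 14.5% and the TATA box in 15.4% against 10.7%. The members' windows were also richer in G and C, with a median of 64.8% against 58%. These shares describe letters, and no binding was measured.

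In acidosis the members did not move together. HNRNPL, PTBP1 and HNRNPC rose by over 1 on the log2 scale while HNRNPU, SRSF3 and HNRNPD fell by over 1. Of 40 tested members, 17 passed as higher and 13 as lower, where 32.5% and 34.2% of all tested genes did. The calls were 3 higher and 3 lower, against a background of 14.4% and 19.1%. The members that passed were 42.5% and 32.5% of those tested. Most members are abundant, and among the 2274 tested genes that averaged 100 CPM or more, 67.6% passed as higher and 18.6% as lower. This mean is over all 7 samples, so genes that rose in acidosis reach the limit more easily than genes that fell. These shares therefore lean towards higher, and the same holds wherever this limit is used below, for members too. Of the 32 members that abundant, 15 passed as higher and 13 as lower. Their median log2 fold change was 0.11, beside 0.60 for all tested genes of that abundance.

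HNRNPL, which binds CA-rich elements and controls, among others, the exons of CD45, lies at chr19:38836370-38852347 on the minus strand (GRCh38). Control samples had 435 and 446 CPM of it, SRPIN340 samples 321 and 290, and acidosis samples 2325, 2199 and 2367. The acidosis samples lay far above all others, and the SRPIN340 samples lay below both controls. The log2 fold change in acidosis was 2.38 (SE 0.0676, edgeR adjusted p = 8.31e-09), a 5.21-fold rise. PTBP1, the polypyrimidine tract-binding protein that represses neuronal exons, lies at chr19:797075-812327 on the plus strand. It stood at 411 and 456 CPM in control, 340 and 321 with SRPIN340 and 1098, 1045 and 1118 in acidosis, so no acidosis sample overlapped another group. The log2 fold change in acidosis was 1.33 (SE 0.0681, edgeR adjusted p = 1.87e-07). HNRNPC, which binds uridine tracts and packages nascent RNA as a tetramer, lies at chr14:21209136-21269494 on the minus strand. It had 765 and 739 CPM in control, 663 and 626 with SRPIN340 and 1801, 1868 and 1809 in acidosis. Acidosis raised it by 1.28 on the log2 scale (SE 0.0553, edgeR adjusted p = 6.82e-08).

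HNRNPU, also called SAF-A, is a nuclear matrix protein that binds chromatin-associated RNA. It lies at chr1:244840638-244864560 on the minus strand and had 1997 and 1471 CPM in control, 1209 and 1228 with SRPIN340 and 571, 587 and 503 in acidosis. The control samples were far apart, yet both lay above all 5 others. Its log2 fold change in acidosis was -1.65 (SE 0.114, edgeR adjusted p = 1.2e-06), with -1.87 and -1.42 as the outer values when a replicate was left out. SRSF3, the smallest of the canonical SR proteins and a link between splicing and mRNA export, lies at chr6:36594353-36605600 on the plus strand. Its level was 476 and 483 CPM in control, 447 and 441 with SRPIN340, and 169, 161 and 175 in acidosis. The fall of 2.85-fold (log2 fold change -1.51, SE 0.0595, edgeR adjusted p = 3.97e-08) separated the acidosis samples from both other groups. HNRNPD, or AUF1, binds AU-rich elements in 3' ends and promotes the decay of many short-lived mRNAs. At chr4:82352498-82374503 on the minus strand, it had 536 and 442 CPM in control, 358 and 342 with SRPIN340 and 189, 200 and 178 in acidosis. Its log2 fold change was -1.37 (SE 0.0875, edgeR adjusted p = 7.07e-07). These 6 genes were called under each setting tried except scaling by total count only, where HNRNPC and PTBP1 still passed as higher but with log2 fold changes of 0.71 and 0.75, under the limit of 1.

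**Figure D1:**
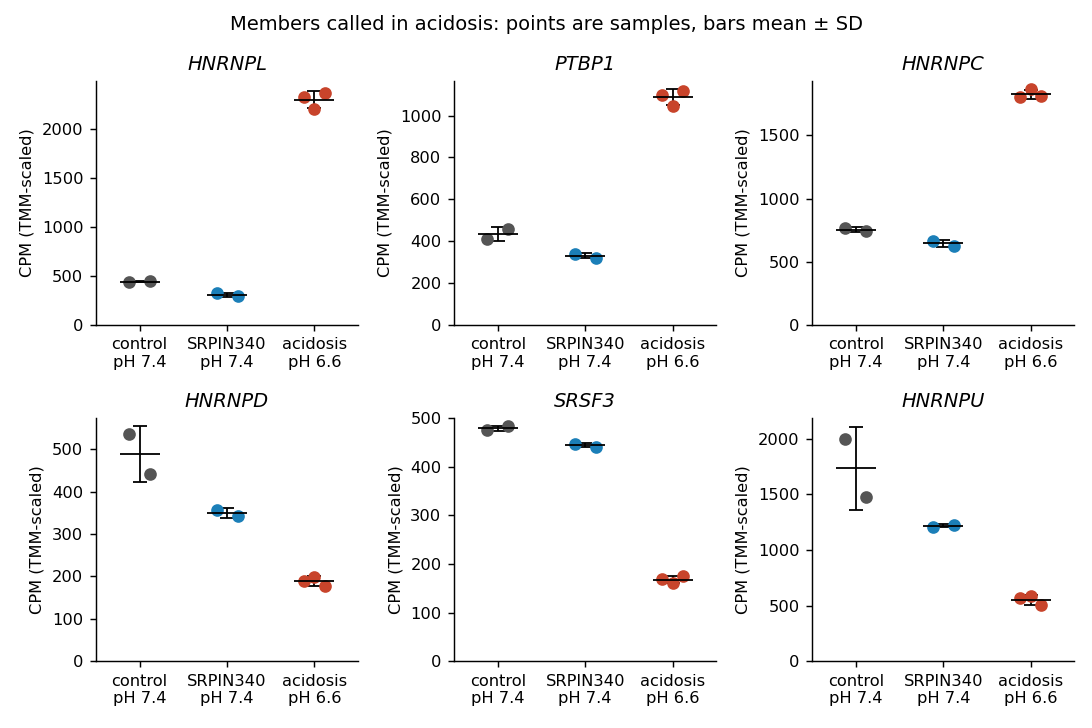
TMM-scaled CPM (linear axes from 0) of the 6 members called in acidosis, in control, SRPIN340 and acidosis samples; points are samples, bars the mean and SD (n = 2, 2 and 3). In every panel the 3 acidosis samples lie apart from the 4 others, above them for HNRNPL, PTBP1 and HNRNPC and below them for HNRNPD, SRSF3 and HNRNPU.

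Of the 12 SR genes, 5 passed as lower in acidosis and 3 as higher, beside 34.2% and 32.5% of all tested genes. All SR genes but SRSF8 and SRSF12 averaged at least 100 CPM. Among tested genes of that abundance, 18.6% passed as lower and 67.6% as higher. The median log2 fold change of the SR genes was -0.16, beside -0.05 for all tested genes and 0.60 for those of at least 100 CPM. Besides SRSF3, the genes that fell were SRSF6, SRSF5, SRSF7 and SRSF1. SRSF6, a regulator of tau exon inclusion, stood at 190 and 193 CPM in control, 127 and 126 with SRPIN340, and 108, 101 and 101 in acidosis. The 3 groups did not overlap, and the log2 fold change in acidosis was -0.88 (SE 0.0662, edgeR adjusted p = 1.99e-06). SRSF5, whose expression is known to follow growth signals, went from 160 ± 4.0 CPM in control to 91.6 ± 12.2 in acidosis (SD, n = 2 and 3), which is -0.80 on the log2 scale. SRSF7, the closest relative of SRSF3 and likewise an export adaptor, went from 172 ± 1.41 to 104 ± 2.06 CPM, a log2 fold change of -0.72. SRSF1, the founding member of the family, had 481 and 454 CPM in control and 450, 362 and 391 in acidosis. Its difference was small (log2 fold change -0.22, edgeR adjusted p = 0.0463), and the adjusted p was above 0.05 without 6 of the 7 replicates in turn and under DESeq2.

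SRSF4, SRSF9 and SRSF10 passed as higher. SRSF4, a long SR protein close to SRSF6, had 156 and 144 CPM in control, 144 and 159 with SRPIN340 and 236, 245 and 240 in acidosis, with no overlap between acidosis and the rest. The log2 fold change was 0.68 (SE 0.0728, edgeR adjusted p = 2.26e-05), but 0.11 with adjusted p = 0.21 under scaling by total count only. SRSF9 rose from 180 ± 5.68 to 222 ± 21.5 CPM and SRSF10, which represses splicing when dephosphorylated after heat shock, from 179 ± 11 to 213 ± 3.75 CPM, and both were lower in acidosis under scaling by total count only. SRSF2, the SR protein often mutated in myeloid disease, had 293 ± 10.9 CPM in control and 320 ± 12.1 in acidosis, with an adjusted p of 0.0932 and a 95% interval of the log2 fold change from -0.01 to 0.27. SRSF11, SRSF12 and SRSF8 did not pass either. Their log2 fold changes were -0.11, -0.07 and -0.27, with SRSF8 and SRSF12 among the least abundant members at 40.8 and 27.7 CPM in control.

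TRA2B and TRA2A are SR-like activators that bind GAA-rich enhancers. TRA2B fell in acidosis, from 193 and 165 CPM to 117, 134 and 115, a log2 fold change of -0.55 (SE 0.0912, edgeR adjusted p = 0.00043). TRA2A had 96.5 and 82.1 CPM in control and 74, 80.7 and 73.6 in acidosis, where its log2 fold change of -0.23 had an adjusted p of 0.0504. All 3 PTB genes passed as higher in acidosis, but under scaling by total count only PTBP2 (log2 fold change 0.26, adjusted p = 0.237) and PTBP3 (-0.13, adjusted p = 0.425) did not pass. PTBP2, the neuronal form whose exon PTBP1 is known to repress, rose from 21.4 and 16.6 CPM to 38.2, 31.6 and 31.5, a log2 fold change of 0.83 (SE 0.189, edgeR adjusted p = 0.0032). PTBP3 had 108 and 87.9 CPM in control and 111, 140 and 150 in acidosis, a log2 fold change of 0.45 (SE 0.141, edgeR adjusted p = 0.0182) that rested on the control with the lower value, since without control replicate 2 it was 0.29 and did not pass (adjusted p = 0.176).

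Of 23 tested HNRNP genes, 11 passed as higher in acidosis and 7 as lower, with a median log2 fold change of 0.09. Among all tested genes 32.5% passed as higher and 34.2% as lower, and among those of at least 100 CPM 67.6% and 18.6%. HNRNPLL, the relative of HNRNPL known from lymphocytes, rose from 39.7 ± 1.33 to 73.7 ± 2.00 CPM (log2 fold change 0.89, SE 0.0878). Smaller rises, with log2 fold changes from 0.20 to 0.40, passed for HNRNPH3, HNRNPH2, HNRNPA0, HNRNPA1, HNRNPDL, HNRNPUL1, HNRNPA3 and HNRNPF, but all 8 were negative under scaling by total count only. HNRNPA1, the abundant silencer-binding protein that shuttles between nucleus and cytoplasm, had 1778 and 1672 CPM in control and 2178, 2150 and 2182 in acidosis. HNRNPA2B1, its neighbour in sequence and level, had 1812 and 1581 CPM in control and 1690, 1749 and 1809 in acidosis. The groups overlapped, and the 95% interval of its log2 fold change ran from -0.10 to 0.19. HNRNPH1, a binder of G runs, did not pass either (log2 fold change 0.09, 95% interval -0.12 to 0.30).

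The HNRNP genes that fell beside HNRNPU and HNRNPD were HNRNPR, HNRNPUL2, HNRNPM, HNRNPK and HNRNPAB. HNRNPR, a partner of the SMN protein, went from 417 ± 36.6 to 246 ± 10.1 CPM, a log2 fold change of -0.76 (SE 0.0714, edgeR adjusted p = 9.05e-06). HNRNPUL2 had 136 and 120 CPM in control and 84.9, 76.2 and 77.9 in acidosis, a log2 fold change of -0.68, whereas its relative HNRNPUL1 had 664 and 640 in control and 814, 816 and 763 in acidosis. HNRNPK, which binds C-rich RNA, went from 858 ± 28.9 to 673 ± 24.1 CPM. HNRNPM had 490 and 365 CPM in control and 317, 335 and 270 in acidosis. The controls were spread widely, and its log2 fold change of -0.48 became -0.25 (adjusted p = 0.0894) without control replicate 1. HNRNPAB was the least changed of them, at 426 ± 9.64 and 380 ± 3.92 CPM.

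**Figure D2:**
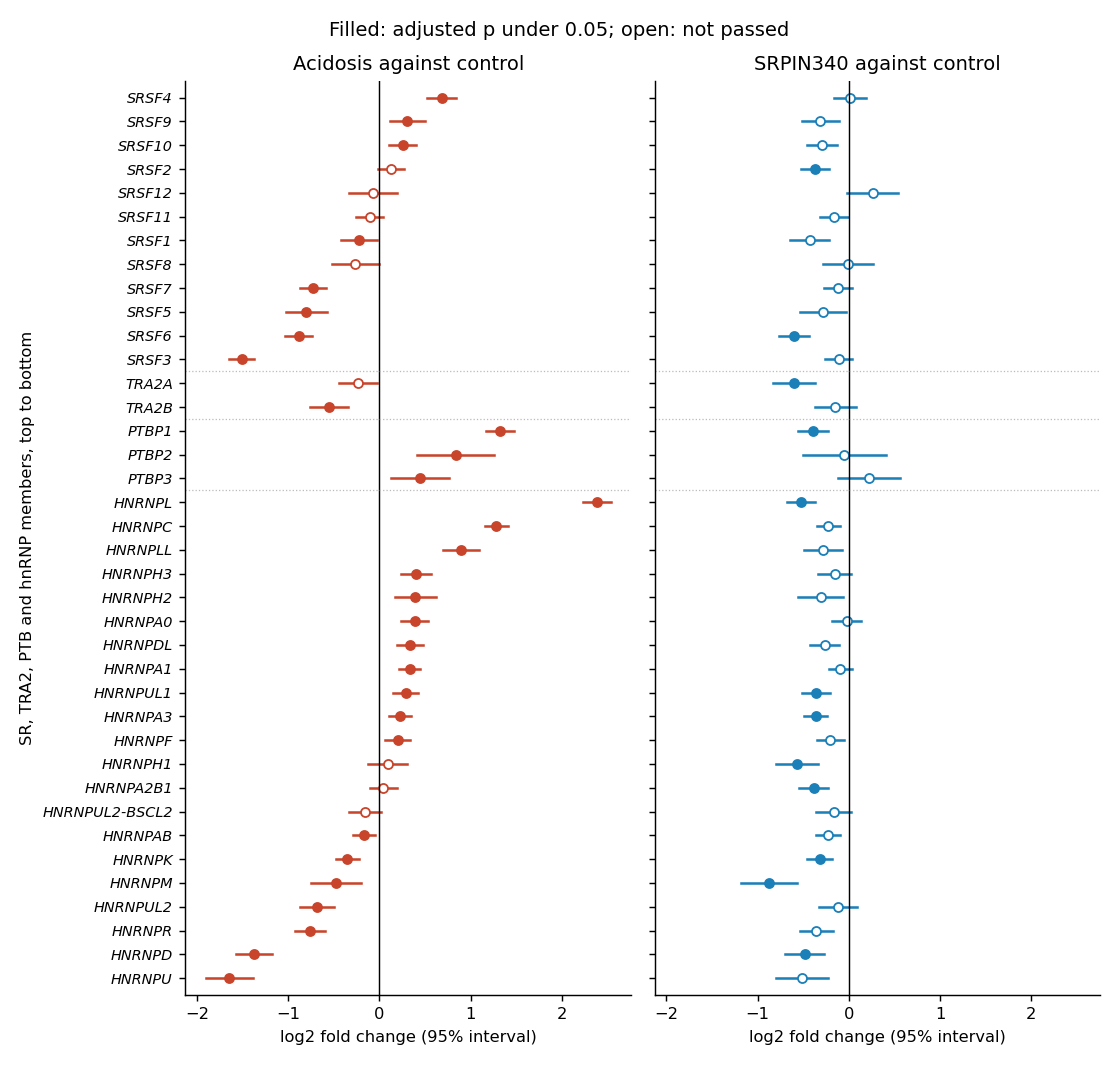
Log2 fold change with its 95% interval for the 38 members with a mean of at least 10 CPM, in acidosis (left) and with SRPIN340 (right), by family and ordered by the acidosis value; filled points passed the adjusted p threshold. Acidosis values run from -1.65 to 2.38, where 14 of the positive values turned negative under scaling by total count only, and SRPIN340 values run from -0.88 to 0.26 with nearly all below 0.

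With SRPIN340 fewer members passed than in acidosis, and those that did were lower. Of 40 tested members, 37 had a log2 fold change below 0, 12 passed as lower and 0 as higher, and 0 were called in either direction. Below 0 were 7356 of all 14863 tested genes and 1422 of the 2274 that averaged 100 CPM or more. Among all tested genes 1.53% passed as lower and 0.767% as higher, and 0.195% and 0.128% were called lower and higher. At an unadjusted p under 0.05, 25 members were lower and 0 higher, beside 9.48% and 8.15% of all tested genes. DESeq2 passed 20 members as lower and 0 as higher, beside 4.84% and 2.84% of the genes to which it gave an adjusted p. Abundant genes pass more easily, and among tested genes that averaged 100 CPM or more 6.07% passed as lower, beside 11 of the 32 members that abundant. The median log2 fold change was -0.28 over the 40 members and -0.30 over the 32, against 0.00 over all tested genes and -0.06 over those of at least 100 CPM. In 32 of the 40 members both SRPIN340 samples lay below both control samples, as they did in 26.8% of all tested genes.

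Which members pass rests on all 4 of these samples. Without control replicate 1, 2 members passed as lower, without control replicate 2, 6 did, and without either SRPIN340 replicate 0 did, with 1 sample left in a group. The median log2 fold change over the members stayed between -0.31 and -0.24 in these fits and those without an acidosis replicate. HNRNPL and SRSF6 were the 2 members that passed without control replicate 1.

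The 12 members that passed were HNRNPM, SRSF6, TRA2A, HNRNPH1, HNRNPL, HNRNPD, PTBP1, HNRNPA2B1, SRSF2, HNRNPA3, HNRNPUL1 and HNRNPK. SRSF6 had the smallest adjusted p, with a log2 fold change of -0.60 (SE 0.0726, edgeR adjusted p = 0.00601). HNRNPM, a splicing repressor known from epithelial-mesenchymal transition, had 490 and 365 CPM in control and 226 and 239 with SRPIN340. Its log2 fold change of -0.88 (SE 0.137, edgeR adjusted p = 0.0182) was the largest, and ranged from -1.07 to -0.65 when a replicate was left out. TRA2A had 96.5 and 82.1 CPM in control and 59.7 and 58.3 with SRPIN340, a log2 fold change of -0.60 (SE 0.102, edgeR adjusted p = 0.0261). HNRNPH1 had 582 and 670 CPM in control and 436 and 407 with SRPIN340, and its log2 fold change was -0.57 (SE 0.102, edgeR adjusted p = 0.0305). In HNRNPM, TRA2A and HNRNPH1 the 2 groups did not overlap.

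HNRNPL fell by 0.53 on the log2 scale with SRPIN340 (SE 0.0679, edgeR adjusted p = 0.00785) and PTBP1 fell by 0.39 (SE 0.0716, edgeR adjusted p = 0.0323). The remaining passing members were HNRNPD at -0.48, HNRNPA2B1 at -0.39, SRSF2 at -0.37, HNRNPA3 and HNRNPUL1 at -0.36 and HNRNPK at -0.32. SRSF1, the SR protein best known as an SRPK1 substrate, had 344 and 351 CPM against 481 and 454 in control. Its log2 fold change was -0.43 with a 95% interval from -0.64 to -0.21, and its adjusted p of 0.053 fell short of the threshold. HNRNPU was also below it, at -0.51 with a 95% interval from -0.79 to -0.23 and an adjusted p of 0.0738.

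The 95% intervals of the other members that did not pass with SRPIN340 varied. Those of HNRNPR, SRSF9, HNRNPH2, SRSF10, HNRNPLL, SRSF5, HNRNPDL, HNRNPAB, HNRNPC, HNRNPF and SRSF11 lay wholly below 0. Their log2 fold changes ran from -0.36 (HNRNPR, interval -0.53 to -0.18) to -0.17 (SRSF11, -0.32 to -0.01). The remaining intervals held 0, and that of PTBP2 was wide, from -0.50 to 0.41. For SRSF3 the log2 fold change was -0.11 (95% interval -0.26 to 0.04), for SRSF7 -0.12 (-0.27 to 0.04) and for SRSF4 0.01 (-0.16 to 0.19). HNRNPA1 had 1651 and 1580 CPM against 1778 and 1672, with an interval from -0.22 to 0.03. HNRNPA0, a gene without introns, had -0.02 (-0.18 to 0.13). Positive values were found for SRSF12, at 0.26 (-0.02 to 0.54), PTBP3, at 0.22 (-0.12 to 0.56), and SRSF4.

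**Figure D3:**
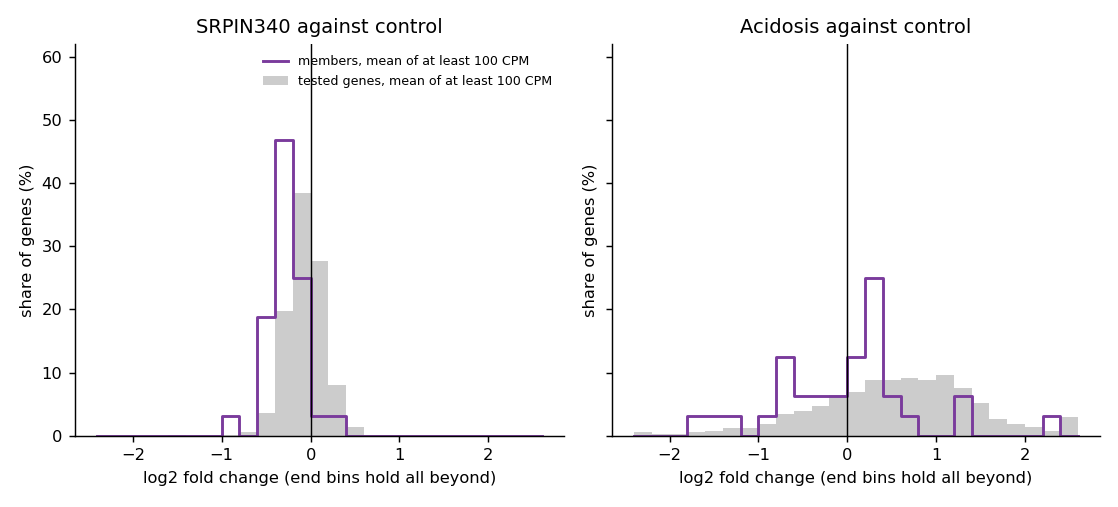
Share of genes (percent, linear axes) by log2 fold change for SRPIN340 (left) and acidosis (right) against control, with grey bars for the 2274 tested genes of at least 100 CPM and the line for the 32 members of that abundance. The CPM limit is on the mean over all 7 samples, which genes raised in acidosis reach more easily. With SRPIN340 the members sit to the left of the bars (medians -0.30 and -0.06), and in acidosis the members spread to both sides, with a median of 0.11 beside 0.60.

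Set directly against each other, acidosis and SRPIN340 differed in most members: 21 passed as higher in acidosis and 10 as lower, where 32.8% and 35% of all tested genes did. The calls were 4 higher (14.9% of all tested genes) and 2 lower (19.7%). HNRNPL differed by 2.91 on the log2 scale (SE 0.0696, edgeR adjusted p = 3.08e-09), PTBP1 by 1.72, HNRNPC by 1.5 and HNRNPLL by 1.18. SRSF3 was lower in acidosis by a log2 difference of -1.40 (SE 0.0596, edgeR adjusted p = 6.04e-08), and HNRNPU by -1.14. HNRNPK had about the same level in both conditions, at 687 ± 2.10 and 673 ± 24.1 CPM, both below control. For SRSF6 both conditions were below control too, and acidosis was the lower (log2 difference -0.28, SE 0.067, edgeR adjusted p = 0.00401). HNRNPM and TRA2A went the other way, with SRPIN340 lower than acidosis by log2 differences of 0.40 and 0.37. SRPIN340 and acidosis are set against the same control samples, so a deviation of those samples enters both comparisons.

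Ratios between related genes within a sample do not depend on the scaling of libraries. The log2 ratio of HNRNPL to HNRNPLL was 3.49 and 3.46 in control, 3.26 and 3.20 with SRPIN340 and 4.95, 4.95 and 4.99 in acidosis. Both genes rose in acidosis, and HNRNPL rose more. HNRNPD and HNRNPDL, which lie near each other on chromosome 4, changed their order: the log2 ratio was 0.54 and 0.41 in control, 0.31 and 0.21 with SRPIN340 and -1.18, -1.19 and -1.32 in acidosis. SRSF4 and SRSF6 changed order the opposite way, from -0.28 and -0.42 in control to 0.19 and 0.34 with SRPIN340 and to 1.13, 1.28 and 1.24 in acidosis. In this pair each condition was apart from the others.

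TRA2A over TRA2B moved in opposite directions in the 2 conditions. The log2 ratio was -1.0 and -1.01 in control, -1.44 and -1.47 with SRPIN340 and -0.67, -0.73 and -0.65 in acidosis, with no overlap between groups. HNRNPUL1 over HNRNPUL2 showed the same order of groups, with means of 2.35 ± 0.0924 in control, 2.10 ± 0.108 with SRPIN340 and 3.32 ± 0.0849 in acidosis. So did PTBP1 over PTBP3, with means of 2.15 ± 0.314, 1.54 ± 0.218 and 3.04 ± 0.238. PTBP1 over PTBP2 was highest in acidosis, at 5.01 ± 0.156, and overlapped between control and SRPIN340. SRSF3 over SRSF7 was 1.46 and 1.5 in control, 1.5 and 1.47 with SRPIN340, and 0.72, 0.59 and 0.77 in acidosis, so control and SRPIN340 overlapped and acidosis lay below both. SRSF1 over SRSF9 went from 1.38 ± 0.106 in control to 0.85 ± 0.204 in acidosis. HNRNPH1 over HNRNPH2 overlapped between all groups.

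**Figure D4:**
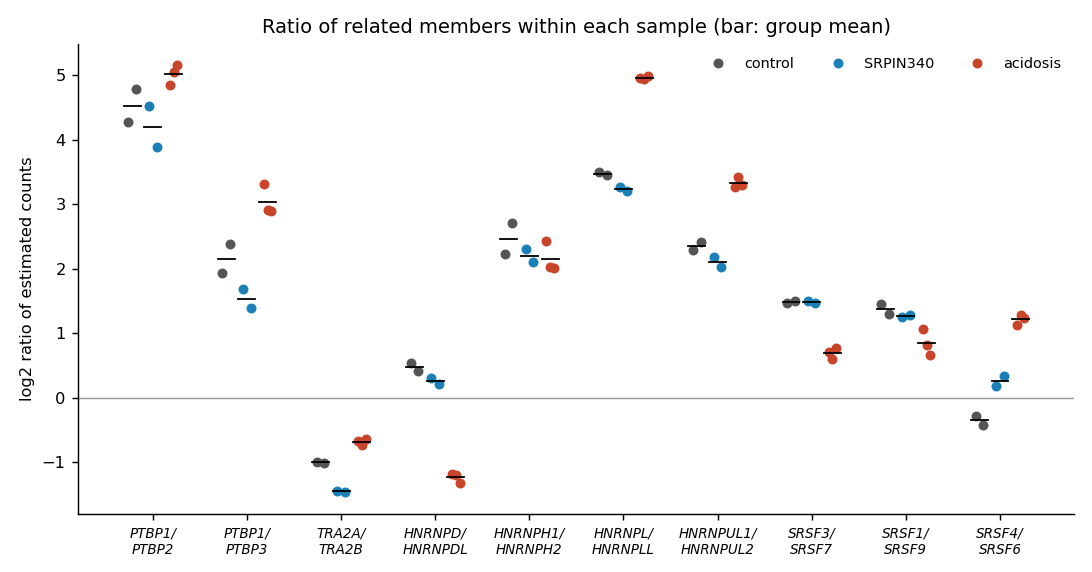
Log2 ratio of the estimated counts of 10 pairs of related members within each sample, by group; points are samples and bars group means. The acidosis samples lie apart from control in 9 of the 10 pairs, above it for HNRNPL over HNRNPLL (means 4.96 and 3.47) and below it for HNRNPD over HNRNPDL (-1.23 and 0.47).

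Summed over the 12 genes, SR transcripts made up 0.306% ± 0.00394 of all counts in control, 0.264% ± 0.000742 with SRPIN340 and 0.171% ± 0.00504 in acidosis (SD, n = 2, 2 and 3). The 27 HNRNP genes made up 1.48% ± 0.0964, 1.20% ± 0.0203 and 1.16% ± 0.0122. These are shares of all counts, of which the most abundant genes took more in acidosis. The log2 ratio of the SR sum to the HNRNP sum, which does not depend on the total, was -2.32 and -2.22 in control, -2.20 and -2.17 with SRPIN340 and -2.71, -2.80 and -2.75 in acidosis. Acidosis was lower than control by -0.48 on average, with all 3 acidosis samples below both controls, and the SRPIN340 samples lay above both controls by 0.08 on average, about the SD of the control samples. The sums rest on the most abundant members: with the median of the members' log2 changes in place of the sums, the difference in acidosis was -0.25.

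**Figure D5:**
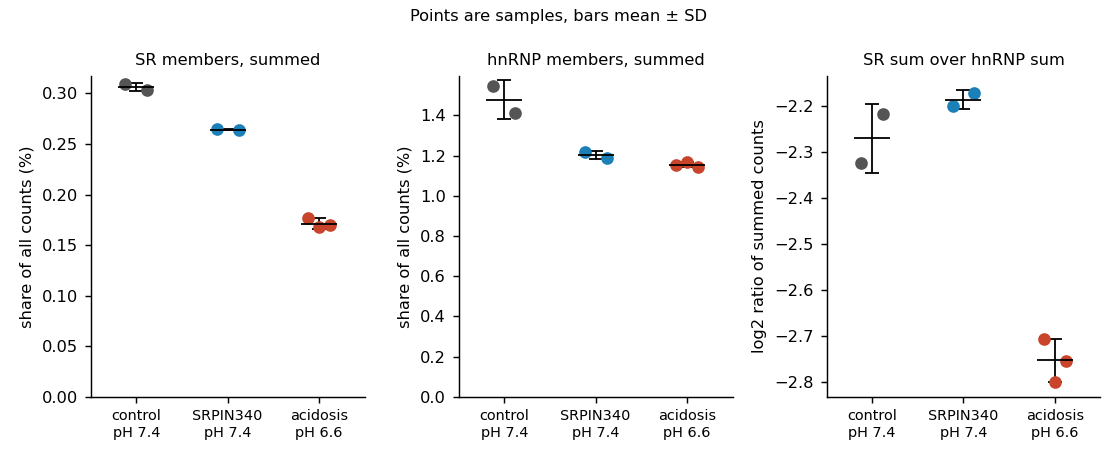
Share of all counts (percent, axes from 0) held by the 12 SR genes and by the 27 HNRNP genes, and the log2 ratio of the SR sum to the HNRNP sum; points are samples, bars mean and SD. Acidosis samples have the lowest ratio, -2.80 to -2.71, against -2.32 to -2.17 in the 4 other samples.

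Per kilobase of the canonical transcript, the most abundant members in control were HNRNPA2B1 at 467 ± 45.0 CPM per kb and HNRNPA1 at 461 ± 20.1, which did not differ beyond their spread. HNRNPK at 297 ± 10.0, HNRNPH1 at 279 ± 27.9, HNRNPU at 253 ± 54.2, HNRNPAB at 241 ± 5.45 and HNRNPC at 238 ± 5.94 CPM per kb followed, and neighbours in this order did not differ beyond their spread either. The highest SR genes were SRSF9 at 156 ± 4.93 and SRSF2 at 155 ± 5.76 CPM per kb, again level with each other. The lowest of the 38 were PTBP2, SRSF12, SRSF8 and HNRNPLL, between 5.72 and 9.57 CPM per kb. In acidosis HNRNPL became the most abundant member at 1072 ± 40.7 CPM per kb, followed by HNRNPA1 at 580 ± 4.58 and HNRNPC at 577 ± 11.7, while HNRNPU dropped to rank 18 and SRSF3 from rank 17 to rank 26. These levels and their order hold only if the deposited counts were not already scaled by transcript length, which is not given in the sources used here. The order also depends on the length used: per kilobase of all annotated exons, HNRNPA1 came first in control at 258 and HNRNPAB second at 201 CPM per kb.

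The proteins that phosphorylate and import SR proteins are measured beside them. Of 8 genes listed as SR protein kinases and their importer, 7 were tested, and 4 passed as higher and 1 as lower in acidosis. Among all tested genes 32.5% passed as higher and 34.2% as lower, and among those of at least 100 CPM 67.6% and 18.6%. CLK1, a nuclear kinase of SR proteins that is stored as partly spliced RNA, rose from 40.6 ± 1.41 to 184 ± 12.6 CPM (log2 fold change 2.18, SE 0.0898, edgeR adjusted p = 5.05e-08), and CLK3 from 45.4 ± 2.69 to 147 ± 21.1 CPM. TNPO3, the importin of SR proteins, fell from 131 ± 3.13 to 78.7 ± 1.38 CPM. SRPK1, the main target of SRPIN340, did not pass in either comparison, with log2 fold changes of 0.05 in acidosis and 0.16 with SRPIN340. With SRPIN340 1 of the 7 passed, CLK4, at -0.67 (edgeR adjusted p = 0.0405), where 1.53% of all tested genes passed as lower.

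Among 28 SR-related splicing proteins, 16 passed as higher and 7 as lower in acidosis, with a median log2 fold change of 0.45. Of all tested genes 32.5% passed as higher and 34.2% as lower, with a median of -0.05. Of those with at least 100 CPM, 67.6% and 18.6% did, with a median of 0.60. RSRC2, an arginine- and serine-rich coiled-coil protein, had the largest change of the list at 2.44 (74.5 ± 0.454 to 405 ± 22.3 CPM), followed by U2AF2, the large subunit of the factor that binds the polypyrimidine tract, at 1.34, and RNPS1, a peripheral exon junction protein, at 1.29. With SRPIN340, 24 of the 28 were below 0, the median was -0.24, and RSRC2, U2AF2 and RBM39 passed as lower. Of all tested genes 1.53% passed as lower, and of those with at least 100 CPM 6.07%, with a median of -0.06 and 1422 of 2274 below 0. Among 19 tested proteins of the hnRNP type with other symbols, 9 passed as higher and 6 as lower in acidosis, against the same backgrounds. RBMX, also known as hnRNP G, fell from 391 ± 4.75 to 169 ± 3.02 CPM, and RBM3, a cold-induced protein, rose from 245 ± 26.9 to 539 ± 30.2 CPM. With SRPIN340, 17 of these 19 were below 0, 8 passed as lower and 0 as higher, and the median was -0.32. The shares of all tested genes were 1.53% lower and 0.767% higher, and 7356 of 14863 were below 0.

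The 35 tested splicing regulators of other families were nearer 0 with SRPIN340. Their median log2 fold change was -0.12, 19 of 35 were below 0 and 1 passed as lower, RBM4. Of all 14863 tested genes 7356 were below 0 and 1.53% passed as lower, with a median of 0.00. In acidosis 11 of them passed as higher and 10 as lower, beside 32.5% and 34.2% of all tested genes, with a median of -0.08. CELF1, a GU-rich element binder, rose by 1.57 on the log2 scale, and the epithelial regulators ESRP1 and RBM47 fell by 1.44 and 1.21. Whether these lists differ from each other was not tested.

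Correlations between sequence features of the transcripts and the members' changes were weak. Over the 38 members, Pearson's r between the GC content of the canonical transcript and the log2 fold change was 0.25 in acidosis and -0.21 with SRPIN340. By ranks, Spearman's rho was 0.08 and -0.18. Over the 10119 tested genes that averaged 10 CPM or more, Pearson's r was 0.13 and -0.15. For the length of the 3' UTR, r was -0.19 and 0.27 over the members, and -0.04 and 0.16 over those genes. These are descriptions across genes, which share libraries and are not independent replicates. The 3 genes called higher differ widely in this respect: the canonical transcripts of PTBP1 and HNRNPL hold 57.7% and 54.3% G and C, and that of HNRNPC 40.2%.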

How the data were processed

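Poly(A) RNA of 7 HEK-293 samples was sequenced by the authors. Per the labels and the study's methods, reads were trimmed (Trim Galore 0.6.6 and Trimmomatic 0.39 are named), quantified by Salmon 1.5.1 on the Gencode transcriptome of GRCh38.p13, and collapsed per gene by tximport. The authors deposited estimated counts, not normalized between samples, and the tximport option is not given in the sources used here. Of 19978 identifiers, 19977 matched GENCODE release 44, which gave symbols, lengths and positions (GRCh38). Where a symbol belongs to more than 1 identifier, the one with more counts was used.

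After rounding, genes kept by filterByExpr were fitted in edgeR 4.0.16 (R 4.3.3) by quasi-likelihood with TMM scaling, all 7 samples in 1 fit. CPM use TMM-scaled totals. The standard error comes from the test statistic, and 95% intervals from its t distribution. Sums, ratios and levels per kilobase are descriptions without a test. Tests were checked on simulated counts, drawn for all groups from the control means with a small part of the genes changed evenly up and down. That check does not cover a case like acidosis, where many genes changed and the top 100 genes took more of each library. Alternatives were DESeq2 1.42.0, RLE size factors, scaling by total count only, other filters, only the 2 groups compared, a replicate block, counts without rounding and each replicate left out in turn. The backgrounds among genes of at least 100 CPM, at an unadjusted p and under DESeq2, and the GC content, were added after the data had been seen. The limit of 100 CPM is on the mean over all 7 samples, acidosis included. Members with a mean of at least 10 CPM are described singly. Of each other list, the genes named for a change that passed in acidosis are among the 3 with the largest change at that level. The members and lists were chosen with earlier results of these data known. Promoters came from RefSeq (GRCh38.p14). Protein sequences were not used here. Figures were drawn with matplotlib 3.10.9.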

Additional observations from a re-analysis of the deposited data

How the results depend on the processing

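The smallest log2 fold change that passed among the members was -0.17 (HNRNPAB) in acidosis and -0.32 (HNRNPK) with SRPIN340. DESeq2 passed smaller ones with SRPIN340, such as HNRNPC (-0.23) and HNRNPAB (-0.24), so these are no limits of detection. Scaling by total count only left 4 members passing as higher and 29 as lower in acidosis against control, with 1 called higher and 10 called lower. Against SRPIN340 it left 4 higher and 22 lower, with 2 and 8 called. Under this scaling the log2 fold change in acidosis changed sign for PTBP3 (-0.13), SRSF10 (-0.32), SRSF2 (-0.45), SRSF9 (-0.27), HNRNPA0 (-0.19), HNRNPA1 (-0.24), HNRNPA2B1 (-0.53), HNRNPA3 (-0.35), HNRNPDL (-0.24), HNRNPF (-0.38), HNRNPH1 (-0.49), HNRNPH2 (-0.18), HNRNPH3 (-0.17) and HNRNPUL1 (-0.28), and with SRPIN340 for SRSF8 (0.0296) and HNRNPA0 (0.0161). With a mean of at least 10 CPM required, HNRNPA2B1 (-0.058) and HNRNPH1 (-0.0151) in acidosis and SRSF8 (0.00148) with SRPIN340 changed sign.

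DESeq2 passed 20 members as lower with SRPIN340, the 12 of edgeR among them, and no other count of members moved by over 1.5 times under it, RLE size factors, the other filters, counts without rounding or a fit of only the 2 groups. Leaving out a replicate gave 0 to 14 members passing as lower with SRPIN340 and 0 to 1 called lower. It also moved values near 0 across it: in acidosis SRSF12 (-0.18 to 0.0139), HNRNPA2B1 (-0.0703 to 0.14) and HNRNPH1 (-0.0155 to 0.17), and with SRPIN340 PTBP2 (-0.35 to 0.20), SRSF4 (-0.0582 to 0.0825), SRSF8 (-0.17 to 0.13), HNRNPA0 (-0.0754 to 0.0271) and the log2 ratio SRSF3/SRSF7 (-0.0127 to 0.0262). None of these had passed. With medians in place of sums, the SR to HNRNP difference was -0.25 in acidosis against control and -0.52 against SRPIN340.

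A replicate block left 2 members passing as lower with SRPIN340, HNRNPL and SRSF6. Samples that share a number had correlations of deviations from the group means between -0.11 and 0.05. In a group of 2 samples the deviations mirror each other, so these values cannot decide whether samples with the same number were handled together. The block moved no other count of members by over 1.5 times.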
